A study of Homo sapiens with 12 samples.

Results

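Chemokines and their receptors were followed in HL-60, a human cell line from a promyelocytic leukaemia, after treatment with decitabine. This nucleoside analogue enters newly made DNA, where DNA methyltransferases become bound to it and methylation is lost as cells divide. The genes were taken from the table by symbol: CCL, CXCL, XCL and CX3CL1 for the ligands, and CCR, CXCR, XCR1, CX3CR1, ACKR and CCRL2 for the receptors. This gave 66 of 60240 genes, 43 ligands and 23 receptors, with 5 of the receptors being atypical receptors that bind chemokines or related ligands without the usual signalling. All cells carried the wild-type genotype (WT) and had been seeded at 100000 cells per mL. Decitabine was given at 100 nM at 0, 24 and 48 h, so that cells taken at 6 h had received the first dose alone. Control cells received the vehicle DMSO. The 6 groups were decitabine and DMSO at each of 6, 72 and 120 h, with 2 libraries in each except DMSO at 72 h, for which 1 library was analysed. Duplicates were wells of the one line, and nothing says that they were separate cultures, so p-values measure the spread between these libraries, which may be technical.

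Chemokines are small secreted proteins that draw leukocytes along a gradient, and they are sorted into CC, CXC, XC and CX3C families by the spacing of their first cysteines. Their receptors are G protein-coupled receptors with overlapping ligand sets, and in blood cells the set of receptors changes as a cell matures: CXCR4 holds progenitors in the marrow, CXCR1 and CXCR2 guide neutrophils, CCR1 and CCR2 guide monocytes, and CCR3 marks eosinophils and basophils. HL-60 cells are arrested at the promyelocyte stage and can be driven towards granulocytes, monocytes or eosinophils in culture.

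Values are normalised counts, deposited after scaling of each library. Estimated depth was 14427331 to 32908419 counts per library, and a single count was worth 0.407 to 0.961 normalised counts, so values below about 3 rest on a handful of reads. The decitabine 72 h libraries lay farther apart than any other pair, at a median absolute log2 difference of 0.59 against 0.19 to 0.26 elsewhere. The transcript FP671120.7 took 5.25% of decitabine 72 h replicate 1 and 0.106% of replicate 2, with 0.0943% in the DMSO 72 h library, 0.0424 to 0.794% in each 6 h library and 3.89 to 10.9% in each 120 h library. Mitochondrial mRNAs took 0.238 to 0.415% of each 6 h library and 0.682 to 0.812% of each 120 h library.

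Of the 66 genes, 22 reached at least 10 normalised counts in at least 2 libraries and were tested, 10 ligands and 12 receptors. A further 26 were above 0 but under this filter, and 18 were at 0 in every library. Of the 22 tested, 8 stayed below 10 in all 5 DMSO libraries (CCL3, CCL20, CCL23, CCR3, CCR8, CCRL2, CXCR1 and CXCR5) and entered through the decitabine libraries, so counts over the tested genes do not stand for all 66. Fold changes are given as log2(value + 1), decitabine minus DMSO, which understates the change of low genes.

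At 120 h, 10 chemokine and receptor genes were higher and 1 was lower with decitabine. The 10 were the ligands CCL2, CCL3, CCL5, CCL20 and CXCL8 and the receptors CCR1, CCR3, CCR8, CXCR4 and CCRL2, and the lower one was CCR2. These are calls by limma at an adjusted p under 0.05, which 15.9% of the 16152 tested genes reached (9.91% higher and 6% lower). Of the 14 members that reached 10 in a DMSO library, 5 were called higher (CCL2, CCL5, CXCL8, CCR1 and CXCR4) and CCR2 was called lower, where 8.35% of the 15203 tested genes that did so were higher and 6.37% lower. The median log2 fold change of these 14 members was 0.80, beside 0.03 over those genes. In these bulk cultures more cells expressing a gene and more RNA per cell cannot be told apart.

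At 72 h, CCL2 and CCRL2 were higher and CCR2 was lower, against 2.19% of all tested genes called (1.88% higher and 0.31% lower). Of the 22 members 11 had an unadjusted p under 0.05, as did 2919 of the 16152 genes. The median log2 fold change of the 14 members that reached 10 in a DMSO library was 0.84, beside 0.06 over all such genes. Mitochondrial mRNAs took 0.662% of decitabine 72 h replicate 1, 0.26% of replicate 2 and 0.386% of the DMSO 72 h library, so that in these and in FP671120.7 replicate 1 was near the 120 h libraries and the other libraries of 72 h near those of 6 h. The part of this in the 72 h results was not tested. At 6 h none of the 22 was called by limma, nor was any of the 16152 genes (0%). ACKR2 and CCL16 had an unadjusted p under 0.05 there, as did 541 genes in all.

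**Figure D1:**
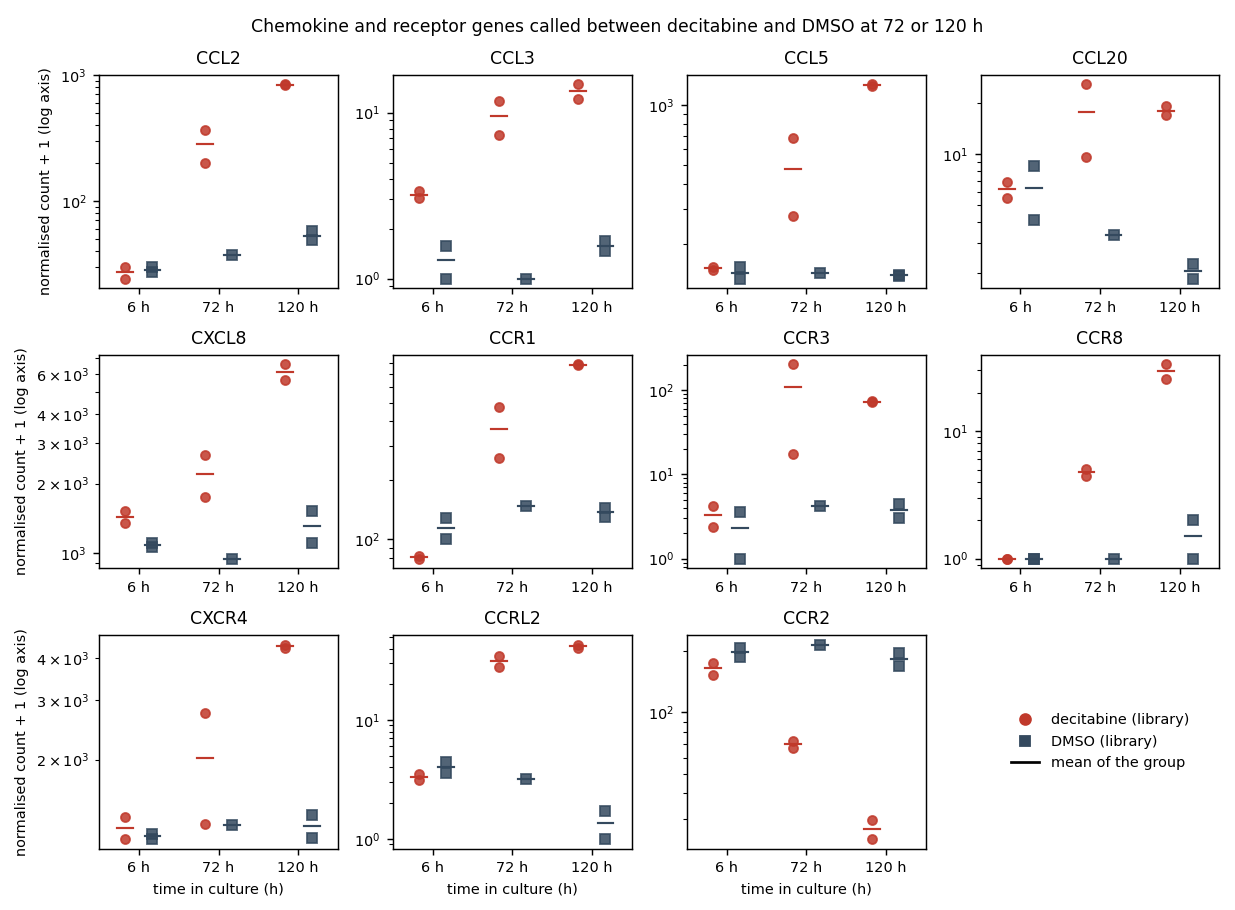
Normalised count plus 1 (log axis) of the 11 genes called at 72 or 120 h, by time in culture in hours; circles are decitabine libraries, squares DMSO libraries and lines group means. At 120 h both decitabine points lie above both DMSO points in 10 panels and below them in the CCR2 panel. The genes were chosen by their calls, so this separation adds no support to them. CCR3 shows the widest gap between the decitabine 72 h libraries.

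CXCL8, also called interleukin-8, attracts neutrophils through CXCR1 and CXCR2 (ENSG00000169429.11, chr4:73740506-73743716, plus strand, GENCODE 29 on GRCh38). It had 1525 and 1342 with decitabine and 1101 and 1056 with DMSO at 6 h, 2665 and 1745 with decitabine and 943 with DMSO at 72 h, and 6598 and 5656 with decitabine and 1519 and 1101 with DMSO at 120 h. The decitabine libraries lay above the DMSO libraries of the same time at all 3 times, narrowly at 6 h and by the most at 120 h. CXCL8 rose at 120 h, to 6127 ± 666 with decitabine against 1310.2 ± 296 with DMSO (SD, n = 2 each; log2 fold change 2.24, SE 0.239, limma adjusted p = 0.000767). At 72 h its log2 fold change was 1.19 and missed the threshold (limma adjusted p = 0.0809).

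Of the genes taken by symbol, 6 CXC ligand genes lie together on chr4:73740506-74099293. CXCL8 is the first of these, followed by CXCL6, CXCL1, CXCL5, CXCL3 and CXCL2, all of which bind CXCR2. The other 5 were under the filter. CXCL1 had 3.99 and 9.51 with decitabine at 120 h and was listed at 0 in both DMSO libraries. CXCL6 had 7.49 and 12.1 with decitabine and 0.616 and 2.48 with DMSO. CXCL2 had 4.02 and 15.8 with decitabine and 6.55 and 0.722 with DMSO, with overlapping groups. CXCL1, CXCL2 and CXCL3 are near-identical in sequence, and reads may have been split among them. CXCL5 and CXCL3 reached no more than 2.24 and 3.12.

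The promoters of these 6 genes share a stretch of letters, which is shown because CXCL8 alone of the group passed the filter and rose. The 9 letters GGAATTTCC, a form of the binding motif of NF-kappaB, were searched on both strands of the 250 bases before each start in RefSeq (GRCh38.p14) and are found in 0.439% of 27305 promoters, 1 per gene. Of 45 chemokine and receptor genes with an entry, 8 hold them: the 6 neighbours, CXCL10, which was at 0 in every library, and CXCL11, which reached 4.78. In the sequences of 29 bases that follow, written 5′ to 3′ on the gene's strand, capitals mark the 9 letters, which CXCL10 and CXCL11 carry in reverse orientation. Starts in RefSeq and GENCODE differ, and the sequences of CXCL6, CXCL5, CXCL3, CXCL2 and CXCL11 lie inside the gene spans of GENCODE.
CXCL8, chr4:73740468-73740496, plus strand, 91 to 83 bases before the start: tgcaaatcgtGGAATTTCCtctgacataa
CXCL6, chr4:73836579-73836607, plus strand, 89 to 81 bases before the start: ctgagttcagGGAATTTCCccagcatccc
CXCL1, chr4:73869305-73869333, plus strand, 78 to 70 bases before the start: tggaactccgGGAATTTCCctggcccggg
CXCL5, chr4:73998749-73998777, minus strand, 90 to 82 bases before the start: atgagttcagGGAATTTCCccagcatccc
CXCL3, chr4:74038749-74038777, minus strand, 78 to 70 bases before the start: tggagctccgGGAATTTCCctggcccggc
CXCL2, chr4:74099254-74099282, minus strand, 77 to 69 bases before the start: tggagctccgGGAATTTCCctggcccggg
CXCL10, chr4:76023655-76023683, minus strand, 176 to 168 bases before the start: aggagcagagGGAAATTCCgtaacttgga
CXCL11, chr4:76036127-76036155, minus strand, 75 to 67 bases before the start: actcaaagagGGAAATTCCtgtgccataa
Of the 20 flanking letters, CXCL5 and CXCL6 share 19 and CXCL1 and CXCL2 also share 19, while CXCL8 shares 5 to 8 with the other 5 of the group. A match describes these letters and is not a measured binding site.

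The whole window of CXCL8 is printed beside that of CXCR4, since these were the most abundant ligand and the most abundant receptor. Capitals mark the TATA box letters TATAAA (11.2% of promoters on either strand), GGAATTTCC, and the AP-1 letters TGANTCA (6.57%); the 2 TATA matches of CXCR4, one on each strand, overlap and are written as one run.
CXCL8, chr4:73740319-73740568, plus strand: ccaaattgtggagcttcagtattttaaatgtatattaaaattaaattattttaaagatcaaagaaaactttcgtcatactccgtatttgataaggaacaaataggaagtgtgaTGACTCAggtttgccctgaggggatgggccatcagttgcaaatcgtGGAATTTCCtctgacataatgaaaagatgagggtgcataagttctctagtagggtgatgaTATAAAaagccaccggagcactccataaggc
CXCR4, chr2:136118150-136118399, minus strand: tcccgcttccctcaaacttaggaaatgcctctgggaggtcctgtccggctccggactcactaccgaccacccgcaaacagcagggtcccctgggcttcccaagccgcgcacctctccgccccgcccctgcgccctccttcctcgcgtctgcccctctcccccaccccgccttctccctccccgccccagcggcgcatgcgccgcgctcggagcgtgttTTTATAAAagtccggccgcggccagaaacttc
The CXCL8 window holds 4 CG pairs and that of CXCR4 holds 24. The median over all 27305 promoters is 10, with quartiles of 3 and 23, and over the 45 matched members it is 3. CCL2 and CCL5 had no matched entry.

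CCL2 attracts monocytes through CCR2 (ENSG00000108691.9, chr17:34255218-34257203, plus strand). Its values were 23.2 and 29 with decitabine and 26.1 and 28.8 with DMSO at 6 h, 364 and 197 with decitabine and 36.5 with DMSO at 72 h, and 832 and 840.2 with decitabine and 47.9 and 56.3 with DMSO at 120 h. The groups overlapped at 6 h and were apart at 72 and 120 h, with the decitabine libraries on top. CCL2 rose at 120 h (log2 fold change 3.98, SE 0.305, limma adjusted p = 0.000175) and at 72 h (log2 fold change 2.85, SE 0.374, limma adjusted p = 0.00916). Among DMSO libraries its level at 120 h was 52.1 ± 5.94 against 27.5 ± 1.95 at 6 h, a log2 difference of 0.9 that was not called (limma adjusted p = 0.894).

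CCL2 lies with CCL7, CCL11, CCL8, CCL13 and CCL1 on chr17:34255218-34363231. CCL7, the gene next to it and another monocyte attractant, had 1.5 and 2.15 with decitabine and 0 and 0.809 with DMSO at 120 h and was at 0 in the other 7 libraries. CCL11, CCL8 and CCL13 were at 0 throughout, and CCL1 reached 1.38 in decitabine 72 h replicate 1 alone.

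CCL5, or RANTES, attracts T cells, monocytes and eosinophils through receptors that include CCR1 and CCR3 (ENSG00000271503.6, chr17:35871491-35880793, minus strand). It had 152 and 147 with decitabine and 152 and 133 with DMSO at 6 h, 679 and 275 with decitabine and 142 with DMSO at 72 h, and 1273 and 1246 with decitabine and 137 and 139 with DMSO at 120 h. DMSO values were nearly the same at all times, the decitabine 72 h libraries stood apart from one another, and both decitabine 120 h libraries were above every other library. CCL5 rose at 120 h, with 1259.8 ± 19.1 with decitabine against 138 ± 1.01 with DMSO (SD, n = 2 each; log2 fold change 3.18, SE 0.356, limma adjusted p = 0.000945). At 72 h its log2 fold change of 1.6 was not called (limma adjusted p = 0.107).

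CCL5 is the first of 10 CC ligand genes on chr17:35871491-36212878, among which CCL3 was also called. CCL3, or MIP-1 alpha, is a ligand of CCR1 (ENSG00000277632.2, chr17:36088256-36090169, minus strand). Its values were 2.36 and 2.04 with decitabine and 0 and 0.575 with DMSO at 6 h, 6.34 and 10.8 with decitabine and 0 with DMSO at 72 h, and 13.8 and 11.1 with decitabine and 0.465 and 0.673 with DMSO at 120 h. Both decitabine libraries exceeded the DMSO libraries at each time, and the DMSO values were those of a handful of reads at most. CCL3 rose at 120 h (log2 fold change 3.1, SE 0.603, limma adjusted p = 0.0114), and with a pseudocount of 5 in place of 1 the log2 fold change was 1.65. Its exons share 1115 bases with the antisense gene AC243829.4, which had 11.2 and 2.46 with decitabine and 11.03 and 6.49 with DMSO at 120 h, and it is not known from the labels or the table whether strand was used in counting.

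The near-identical copy CCL3L1 had 11.9 and 2.64 with decitabine and 0.592 and 1.95 with DMSO at 120 h. CCL4, or MIP-1 beta, an attractant of monocytes and T cells, had 9.17 and 5.41 with decitabine and 0.817 and 0 with DMSO, and its copy CCL4L2 had 11.9 and 5.53 with decitabine and 0 in both DMSO libraries. The lower decitabine value of CCL3L1 was close to the higher DMSO value, and because reads may be split between copies, each level is uncertain. CCL3L1, CCL4 and CCL4L2 were under the filter and not tested.

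CCL20, the ligand of CCR6, attracts lymphocytes and dendritic cells (ENSG00000115009.13, chr2:227805739-227817564, plus strand). It had 4.57 and 5.87 with decitabine and 3.08 and 7.6 with DMSO at 6 h, 8.64 and 24.9 with decitabine and 2.35 with DMSO at 72 h, and 16 and 18.2 with decitabine and 0.854 and 1.26 with DMSO at 120 h. The groups overlapped at 6 h, and DMSO values were lower at 120 h than at 6 h without a call (log2 difference -1.53, limma adjusted p = 0.924). CCL20 rose at 120 h (log2 fold change 3.14, SE 0.618, limma adjusted p = 0.0118), and the log2 fold change was 1.87 with a pseudocount of 5.

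The calls of CCL3 and CCL20 were each lost without any 1 of the 4 libraries at 120 h, with adjusted p up to 0.0945 and 0.0847. Those of CCL2, CCL5 and CXCL8, and of the receptors CCR1, CCR2 and CCRL2, at 120 h held under all 18 alternatives run.

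The other 5 tested ligands were not called at any time in the fit of all libraries. CCL28, a mucosal chemokine that binds CCR3 and CCR10, had 28.5 and 24.4 with decitabine and 7.83 and 17.9 with DMSO at 120 h (log2 fold change 1.09, limma adjusted p = 0.176). At 72 h it had 21.9 and 38.1 with decitabine and 5.83 with DMSO (log2 fold change 2.13, limma adjusted p = 0.114). It was called higher at 72 h with all DMSO libraries as the control and without decitabine 72 h replicate 1. CCL23, a ligand of CCR1, had 14.6 and 15.8 with decitabine and 6.46 and 5.49 with DMSO at 120 h (adjusted p = 0.256). In each of these pairs the decitabine libraries lay above the DMSO libraries without a call.

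CCL22, which attracts T helper and regulatory T cells through CCR4, had 24.6 and 22.1 with decitabine and 15.2 and 15.3 with DMSO at 120 h (limma adjusted p = 0.351). CXCL16, a membrane-anchored ligand of CXCR6, had 11.7 and 13.6 with decitabine and 6.15 and 7.08 with DMSO (adjusted p = 0.479). CCL16, a chemokine known from liver, had 8.19 and 8.53 with decitabine and 12.7 and 11.2 with DMSO (adjusted p = 0.562). Over all 11 libraries CCL22 ran from 7.61 to 24.6, CXCL16 from 1.34 to 13.6 and CCL16 from 5.28 to 24.7.

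The remaining ligands were low or at 0. CX3CL1, the membrane-bound ligand of CX3CR1, reached 13.8 in DMSO 6 h replicate 2. CXCL11, one of the ligands of CXCR3, reached 4.78. Of the 20 ligands under the filter, CXCL2, CX3CL1, CXCL6, CCL3L1, CCL4L2, CXCL1, CCL4, CXCL11 and CXCL3 reached at least 3, as did the receptors CX3CR1 and ACKR3, while 14 members under the filter stayed below 3. The 13 ligands at 0 in every library were CCL8, CCL11, CCL13, CCL17, CCL19, CCL21, CCL25, CCL26, CXCL10, CXCL12, CXCL13, XCL1 and XCL2. PF4, PF4V1 and PPBP, chemokines of platelets whose symbols follow another pattern, were at 0 in all 11 libraries as well.

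Summed over all 43 ligands, the libraries held 8882 and 7922 normalised counts with decitabine and 1775 and 1367 with DMSO at 120 h. CXCL8 made up most of each sum. Without it, the other ligands summed to 2284 and 2267 with decitabine and 255 and 266 with DMSO.

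Among the receptors, CXCR4 was the most abundant. It is the receptor of CXCL12 and retains haematopoietic cells in the marrow (ENSG00000121966.7, chr2:136114349-136118165, minus strand). It had 1349 and 1163 with decitabine and 1165 and 1206 with DMSO at 6 h, 2751 and 1286 with decitabine and 1275 with DMSO at 72 h, and 4267 and 4384 with decitabine and 1169.9 and 1371 with DMSO at 120 h. Both decitabine 120 h libraries were above every other library, whereas at 72 h replicate 1 was high and replicate 2 stood at the DMSO level. CXCR4 rose at 120 h, to 4326 ± 83 with decitabine against 1271 ± 142 with DMSO (SD, n = 2 each; log2 fold change 1.77, SE 0.307, limma adjusted p = 0.00679). The call was lost without decitabine 120 h replicate 1 or 2 or DMSO 120 h replicate 1, with adjusted p up to 0.0545.

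CCR1 binds CCL3, CCL5 and CCL23 and is found on monocytes and other myeloid cells (ENSG00000163823.4, chr3:46201709-46208396, minus strand). Its values were 78.4 and 81.4 with decitabine and 99 and 128 with DMSO at 6 h, 471 and 259 with decitabine and 148 with DMSO at 72 h, and 780.2 and 783 with decitabine and 129 and 143 with DMSO at 120 h. At 6 h both decitabine libraries were below both DMSO libraries, and at 72 and 120 h above them. CCR1 rose at 120 h, to 782 ± 1.92 with decitabine against 136 ± 9.8 with DMSO (SD, n = 2 each; log2 fold change 2.51, SE 0.282, limma adjusted p = 0.000971), and its 72 h log2 fold change of 1.24 was not called (limma adjusted p = 0.114).

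CCR2, the receptor of CCL2 that brings monocytes out of the marrow (ENSG00000121807.5, chr3:46353734-46360928, plus strand), was the one member that fell. It had 152 and 174 with decitabine and 186 and 205 with DMSO at 6 h, 71.2 and 66.2 with decitabine and 214 with DMSO at 72 h, and 28.7 and 23 with decitabine and 193 and 168 with DMSO at 120 h. The decitabine libraries of 72 and 120 h were below all 5 DMSO libraries, and at 6 h both were below both DMSO libraries by less. CCR2 fell at 72 h (log2 fold change -1.63, SE 0.263, limma adjusted p = 0.0214) and at 120 h (log2 fold change -2.77, SE 0.215, limma adjusted p = 0.000189). The call at 72 h was lost without DMSO 6 h replicate 1 or 2, and when only the 72 h libraries were fitted (adjusted p up to 0.996). Between decitabine libraries, the level at 120 h was 25.8 ± 4.05 against 68.7 ± 3.54 at 72 h, which was not called (log2 difference -1.39, limma adjusted p = 0.0719).

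CCR1 and CCR2 lie 145338 bases apart and moved in opposite directions, so the 250 bases before each RefSeq start are shown together (GRCh38.p14, 5′ to 3′ on the gene's strand). The RefSeq starts differ from those of the GENCODE spans given above. By these spans the CCR2 window lies inside its gene and the CCR1 window overlaps the start of its gene. The capitals in CCR2 mark the AP-1 letters TGANTCA. CCR1 holds none of the 3 motifs.
CCR1, chr3:46208314-46208563, minus strand: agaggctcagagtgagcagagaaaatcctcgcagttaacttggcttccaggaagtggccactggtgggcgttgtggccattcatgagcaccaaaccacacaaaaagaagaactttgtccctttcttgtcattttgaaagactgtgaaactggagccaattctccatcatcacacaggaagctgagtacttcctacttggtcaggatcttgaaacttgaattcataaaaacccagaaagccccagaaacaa
CCR2, chr3:46353861-46354110, plus strand: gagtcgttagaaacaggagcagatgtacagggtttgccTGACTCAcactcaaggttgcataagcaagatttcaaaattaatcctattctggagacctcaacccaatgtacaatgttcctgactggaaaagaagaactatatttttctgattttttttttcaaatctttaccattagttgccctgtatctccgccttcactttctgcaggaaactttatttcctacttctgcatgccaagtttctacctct
Both windows hold 2 CG pairs, near the lower quartile of all promoters.

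CCR3, the receptor through which eotaxins attract eosinophils and basophils (ENSG00000183625.15, chr3:46163604-46266706, plus strand), had 3.28 and 1.39 with decitabine and 0 and 2.61 with DMSO at 6 h, 16.3 and 201 with decitabine and 3.25 with DMSO at 72 h, and 72.4 and 71.5 with decitabine and 2.03 and 3.44 with DMSO at 120 h. Every decitabine library at 72 and 120 h was above every DMSO library, and decitabine 72 h replicate 2 held the highest value of all. CCR3 rose at 120 h, to 72 ± 0.64 with decitabine against 2.74 ± 0.998 with DMSO (SD, n = 2 each; log2 fold change 4.32, SE 1.08, limma adjusted p = 0.0293). At 72 h the log2 fold change was 3.8 with 109 ± 131 in the decitabine libraries, and it was not called (limma adjusted p = 0.184). The 120 h call was lost without any 1 of the 4 libraries of that time (adjusted p 0.103 to 0.14), without the filter (0.0901) and with quantile normalisation (0.0505). Without the 72 h libraries the adjusted p was 0.00342.

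CCRL2, an atypical receptor that binds chemerin and presents it to other cells (ENSG00000121797.10, chr3:46407163-46412997, plus strand), had 2.54 and 2.13 with decitabine and 3.46 and 2.58 with DMSO at 6 h, 33.8 and 26.8 with decitabine and 2.17 with DMSO at 72 h, and 39.4 and 42.3 with decitabine and 0 and 0.70 with DMSO at 120 h. All 4 decitabine libraries at 72 and 120 h were above all DMSO libraries, while at 6 h both decitabine libraries were below both DMSO libraries. CCRL2 rose at 120 h (log2 fold change 5.0, SE 0.479, limma adjusted p = 0.000481; 3.10 with a pseudocount of 5) and at 72 h (log2 fold change 3.3, SE 0.587, limma adjusted p = 0.0315). The 72 h call was lost without either decitabine 120 h library or any 1 of the 4 libraries at 6 h, with the replicate number as a block, and when only the 72 h libraries were fitted (adjusted p up to 0.637).

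CCR8, a receptor of CCL1 known from regulatory T cells (ENSG00000179934.7, chr3:39329706-39333511, plus strand), had 0 and 0 with decitabine and 0 and 0 with DMSO at 6 h, 4.07 and 3.46 with decitabine and 0 with DMSO at 72 h, and 24.5 and 32.3 with decitabine and 1.0 and 0 with DMSO at 120 h. It was at 0 in 6 of the 7 libraries outside the decitabine 72 and 120 h groups, and the decitabine 120 h libraries stood above those of 72 h. CCR8 rose at 120 h (log2 fold change 4.37, SE 0.659, limma adjusted p = 0.00374; 2.60 with a pseudocount of 5). This call held in each of the 16 alternatives in which the gene passed the filter, and without either decitabine 120 h library it did not pass.

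By the lower coordinate of each span, CCR3, CCR1, CCR2 and CCRL2 come in that order in a group of receptor genes on chr3:45886504-46412997. This group also holds CCR9, CXCR6 and XCR1. The span of CCR1, on the minus strand, lies inside that of CCR3, on the plus strand. All 4 tested genes of this group were called at 120 h, 3 of them higher, beside 9.91% higher and 6% lower over all tested genes. CCR3 and CCRL2 stayed below 10 in all DMSO libraries and entered through the decitabine libraries. Of the genes here that reached 10 in a DMSO library, CCR1 was higher and CCR2 was lower. CCR9 was at 0 throughout, and CXCR6 and XCR1 stayed below 3.

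**Figure D2:**
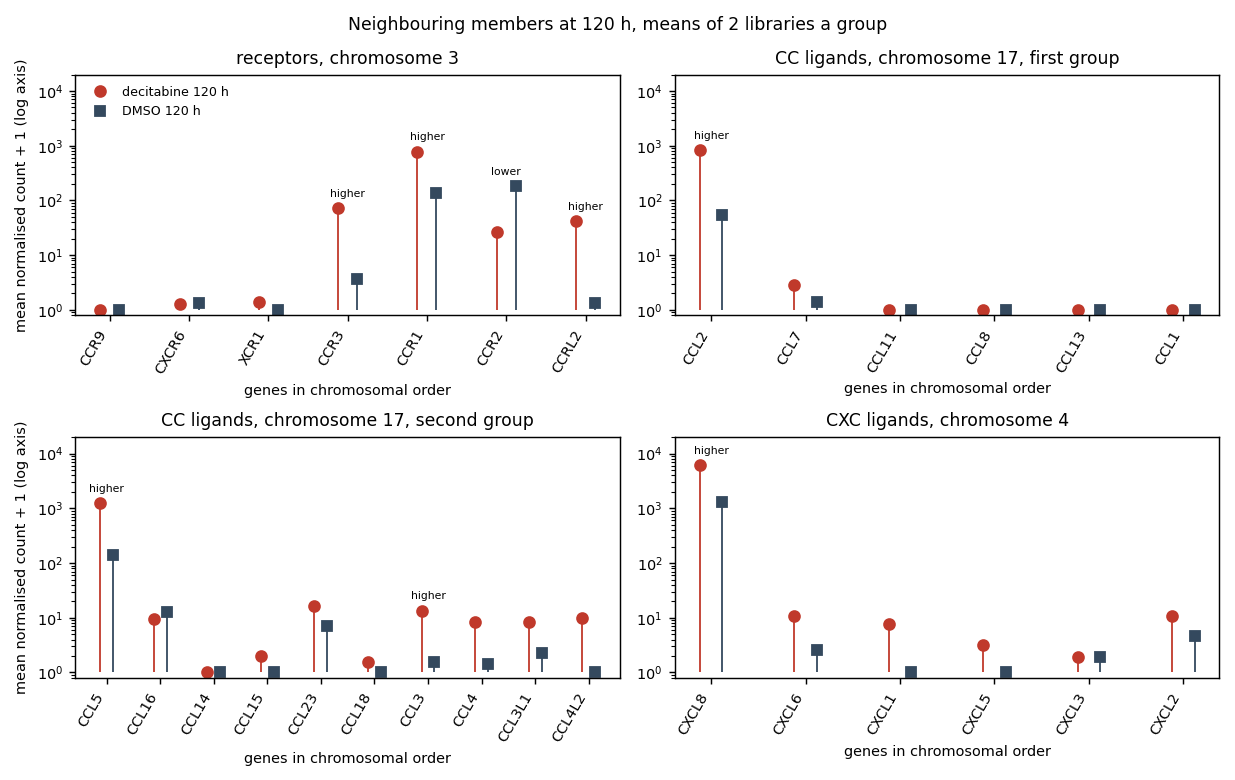
Mean normalised count plus 1 at 120 h (log axis, n = 2 libraries a group) of reported members that lie together, in chromosomal order; circles are decitabine, squares DMSO, and words mark genes called by limma. In the chromosome 3 group CCR2 is lower with decitabine between the higher CCR1 and CCRL2, and CCL2, CCL5 and CXCL8 each stand above the low ligand genes beside them.

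The receptors of CXCL8 were not called. CXCR2 had 108 and 105 with decitabine and 93.7 and 87 with DMSO at 6 h, 83.3 and 184 with decitabine and 145 with DMSO at 72 h, and 155 and 63.4 with decitabine and 73.2 and 152 with DMSO at 120 h. Its replicates lay far apart in both groups at 120 h and at 72 h, and the groups overlapped (120 h log2 fold change -0.09, limma adjusted p = 0.935). CXCR1 had 0 and 2.85 with decitabine and 1.92 and 2.06 with DMSO at 6 h, 10.4 and 0.691 with decitabine and 1.99 with DMSO at 72 h, and 14.9 and 15 with decitabine and 0 and 1.61 with DMSO at 120 h. Both decitabine 120 h libraries of CXCR1 were above every other library, and its log2 fold change of 3.3 missed the threshold (adjusted p = 0.0661). CXCR1 was called higher with a pseudocount of 5, in a fit of the 120 h libraries alone, and without either decitabine 72 h library or without all 72 h libraries. CXCR1 and CXCR2 are similar in sequence, which makes both levels uncertain.

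CXCR5, which guides B cells along CXCL13, had 24.6 and 29.2 with decitabine and 3.19 and 2.41 with DMSO at 120 h, without overlap (log2 fold change 2.88, limma adjusted p = 0.0713). CXCR5 was called higher with a pseudocount of 5, in a fit of the 120 h libraries alone and without DMSO 6 h replicate 1 or 2. Its exons share 3925 bases with BCL9L on the opposite strand, which had 67.4 and 12.9 with decitabine and 36.2 and 19.1 with DMSO. CXCR3, a receptor on T cells for CXCL9, CXCL10 and CXCL11, had 6.34 and 12.9 with decitabine and 26.3 and 21.7 with DMSO (log2 fold change -1.3, adjusted p = 0.162). Both decitabine libraries were lower, and CXCR3 was called lower without decitabine 72 h replicate 2 and without all 72 h libraries. CCR4, the receptor of CCL17 and CCL22, had 21.7 and 17.1 with decitabine and 13.6 and 8.85 with DMSO (adjusted p = 0.31).

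ACKR2, a decoy receptor that takes up inflammatory CC chemokines, had 8.25 and 7.08 with decitabine and 10.9 and 7.44 with DMSO at 120 h (limma adjusted p = 0.79). At 6 h it had 1.71 and 2.42 with decitabine and 6.29 and 5.82 with DMSO, without a call. ACKR2 shares 698 exon bases with the antisense gene AC099329.1. ACKR3, a decoy receptor of CXCL12, reached 3.80, and CX3CR1, a receptor of patrolling monocytes, had 15.8 and 8.46 with decitabine and 3.21 and 3.23 with DMSO at 120 h, under the filter. ACKR4, an atypical receptor of CCL19, CCL21 and CCL25, was above 0 in 1 library alone, at 0.723. The 5 receptors at 0 in every library were ACKR1, CCR6, CCR7, CCR9 and CCR10.

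**Figure D3:**
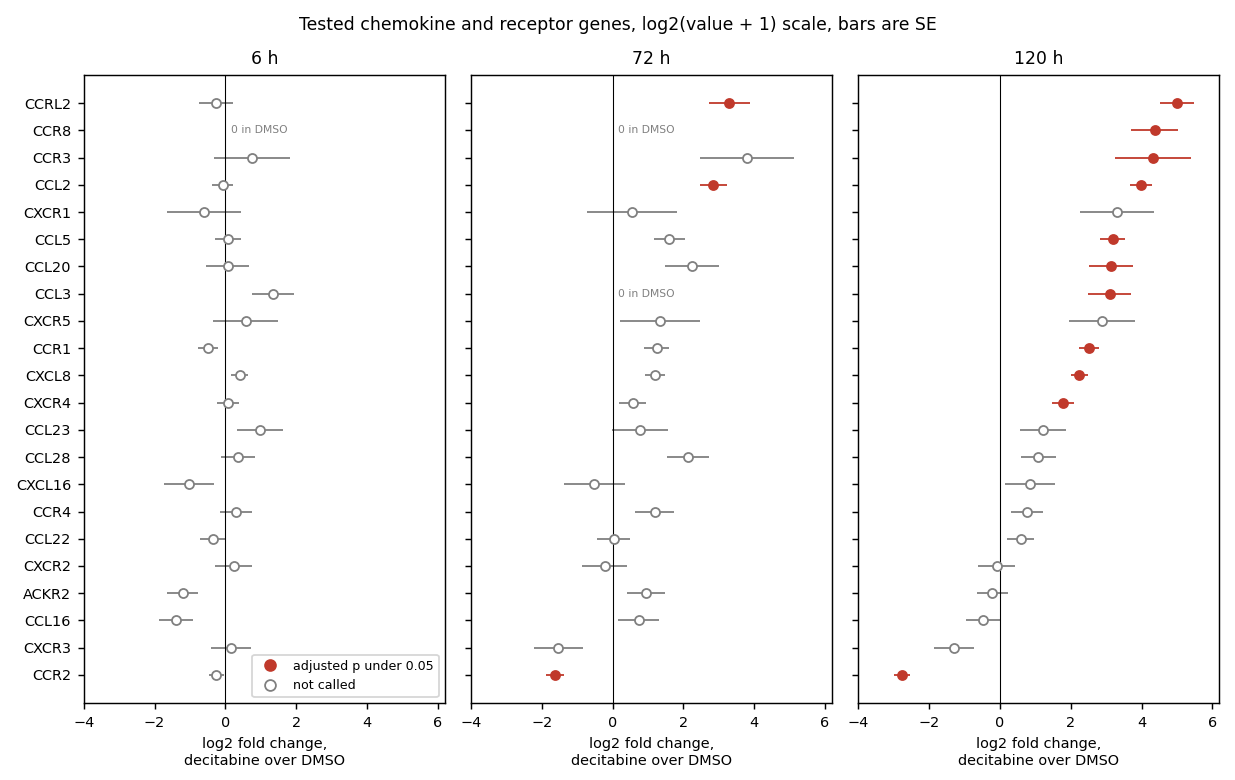
Log2 fold change of the 22 tested genes, decitabine over DMSO on the log2(value + 1) scale, at 6, 72 and 120 h; bars are SE, filled points have an adjusted p under 0.05, and genes at 0 in the DMSO libraries carry no point. No point is filled at 6 h, CCL2, CCRL2 and CCR2 are filled at 72 h, and 11 are filled at 120 h.

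Ligands and receptors can be set side by side by known pairs. CCL2 rose and its receptor CCR2 fell at both 72 and 120 h. CCL3 and CCL5 rose at 120 h together with CCR1, which binds both. CXCL8 rose while neither of its receptors was called. CXCR2 overlapped between the groups, and CXCR1 was higher in both decitabine 120 h libraries than in any other library. CXCR4 rose while CXCL12, its ligand, was at 0 in every library. CCR3 rose while its eotaxin ligands CCL11 and CCL26 were at 0 and CCL24 reached 0.693 in 1 library. Of its other ligands, CCL5 rose at 120 h and CCL28 was not called. CCL20 rose while its receptor CCR6 was listed at 0. CCR6 shares 3008 exon bases with Z94721.2 on the same strand, so its 0 is uncertain. Z94721.2 had 61.2 and 36.3 with decitabine and 70.3 and 63.6 with DMSO at 120 h.

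Per kilobase of exon, which allows genes to be ranked, CXCL8 stood first at 120 h with decitabine, at 2694 ± 293 normalised counts per kb against 576 ± 130.1 with DMSO (SD, n = 2). CXCR4 had 1945 ± 37.3 with decitabine against 571 ± 64 with DMSO, so these 2 genes were apart with decitabine and within their spread with DMSO. CCL5 followed at 833 ± 12.6 with decitabine against 91.3 ± 0.67 with DMSO, and CCL2 at 421 ± 2.96 with decitabine against 26.2 ± 2.99 with DMSO. CCR1 had 286 ± 0.702 with decitabine against 49.9 ± 3.59 with DMSO per kb. With decitabine CXCR2 came next, at 33.9 ± 20.1, and CCR8, at 21.6 ± 4.2, lay within its spread. CCR2 had 6.92 ± 1.09 with decitabine and 48.4 ± 4.72 with DMSO, where it lay within the spread of CCR1.

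Summed over the 23 receptors, the libraries held 5472 and 5496 normalised counts with decitabine and 1627 and 1884 with DMSO at 120 h. Without CXCR4 the sums were 1205 and 1112 with decitabine and 457 and 513 with DMSO.

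The decitabine effect was compared between 120 and 6 h by an interaction term. It was larger at 120 h for CCL2, CCL5, CCR1, CCR8, CCRL2 and CXCL8 and more negative for CCR2, in total 7 of the 22 members against 5.9% of all tested genes (4.27% higher and 1.63% lower). CCR8 was at 0 in all 6 h libraries, so no difference is given for it, and its call was lost in 7 of 16 alternatives (limma adjusted p up to 0.102). For CXCL8 the difference was 1.83 (limma adjusted p = 0.0202), and for CXCR4 it was 1.69 and not called (adjusted p = 0.0596). Between DMSO at 120 h and DMSO at 6 h none of the 22 members and 0% of all genes were called by limma, with an unadjusted p under 0.05 for CCL2, CCL20 and CCRL2 and for 865 genes in all.

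Decitabine libraries at 120 h and at 72 h did not differ by a call in any of the 22 members (0.13% of all genes called, 0.124% higher and 0.00619% lower), although 8 members and 2656 genes had an unadjusted p under 0.05. The smallest adjusted p was that of CCR2, 0.0719. CXCL8 had a log2 difference of 1.5 (adjusted p = 0.0803), CCL2 of 1.64 (0.111), CCL5 of 1.54 (0.158) and CCR8 of 2.62 (0.178). Without decitabine 72 h replicate 1, in which CCL2, CCL5, CCR1, CXCL8 and CXCR4 were higher than in replicate 2, 8 members were called higher at 120 h (CCL2, CCL5, CCL23, CCR1, CCR8, CXCL8, CXCR1 and CXCR4) and CCR2 was called lower, in a fit where 15.5% of all genes were higher and 16.9% lower.

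The decitabine 72 h libraries were compared gene by gene as a description. Of the 22 members, 13 were higher in replicate 1 and 9 in replicate 2. On the value + 1 scale, 6 were over 2-fold higher in replicate 1 (CXCR1, CCL23, CXCR3, CCL5, CXCR4 and CXCL16) and 3 in replicate 2 (CCR3, CCL20 and CXCR2). Over all tested genes, 14.1% and 12% were. CCR3 had the widest gap, at a log2 difference of 3.55 in favour of replicate 2, and 86 of the 16152 genes (0.532%) had a difference in that direction at least as large. The 11 tested eosinophil and basophil markers had a median difference of -0.46 and ran from -1.44 to 0.40, so none came near that of CCR3. FP671120.7 was higher in replicate 1, and its part in these differences was not tested.

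**Figure D4:**
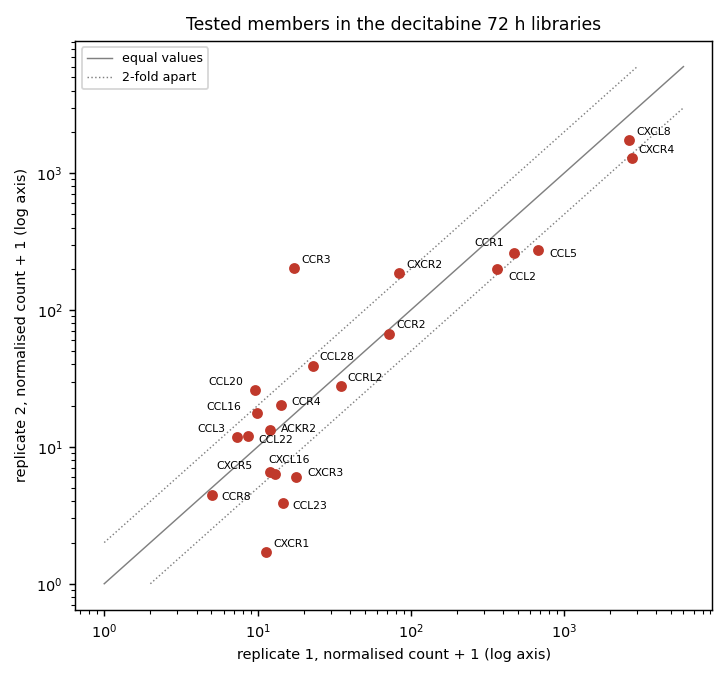
Normalised count plus 1 of the 22 tested members in decitabine 72 h replicate 1 (horizontal) and replicate 2 (vertical), both on log axes; the solid line marks equal values and the dotted lines 2-fold differences. CCR3 lies far above the lines at 16.3 and 201, while CCL5, CXCR4, CXCR3, CCL23, CXCR1 and, narrowly, CXCL16 lie below the lower one.

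Other genes of the pathway were counted from lists chosen with earlier results of these data known. Of 20 receptors for other leukocyte attractants, 17 were tested, and 13 were higher and none lower with decitabine at 120 h, against 9.91% higher over all genes. CYSLTR2, OXER1 and PTGDR2 stayed below 10 in all DMSO libraries and entered through the decitabine libraries. Of the other 14, 11 were higher, with a median log2 fold change of 2.34 beside 0.03 over all genes that reached 10 in a DMSO library. PTGDR2, the prostaglandin D2 receptor of eosinophils and basophils, had 274 and 266 with decitabine and 1.6 and 1.61 with DMSO at 120 h, and 94.1 and 80.9 with decitabine and 1.99 with DMSO at 72 h. It rose at 120 h (log2 fold change 6.7, SE 0.40, limma adjusted p = 7.43e-05). P2RY14, a receptor of UDP-glucose, had 108 and 76.5 with decitabine at 120 h, and OXER1, the receptor of an eicosanoid that attracts eosinophils, had 14.2 and 10.7. Both were listed at 0 in the DMSO 120 h libraries.

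C3AR1, the receptor of complement fragment C3a, had 585 and 616 with decitabine and 45.8 and 63 with DMSO at 120 h (log2 fold change 3.46, SE 0.489, limma adjusted p = 0.00285). The smallest called changes were those of GPR183, an oxysterol receptor (log2 fold change 0.81, SE 0.173, limma adjusted p = 0.0163), LTB4R, the leukotriene B4 receptor (log2 fold change 1.13, SE 0.225, limma adjusted p = 0.0122), GPR35 (log2 fold change 2.09, SE 0.343, limma adjusted p = 0.00534) and C5AR2, a receptor of complement C5a (log2 fold change 2.17, SE 0.223, limma adjusted p = 0.000637). At 72 h 2 of the 17 were higher and none lower, against 1.88% higher and 0.31% lower over all genes. Without CYSLTR2, OXER1 and PTGDR2, which were low in all DMSO libraries, 1 of 14 was higher, beside 1.35% of all genes not so low. At 6 h none was called.

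Of 44 genes for G proteins, effectors and regulators downstream of chemokine receptors, 41 were tested, and 13 were higher and 1 lower at 120 h, against 9.91% higher and 6% lower over all genes. PIK3R6 and RGS1 stayed below 10 in all DMSO libraries. Of the other 39, 11 were higher and 1 lower, with a median log2 fold change of 0.36 beside 0.03. RGS proteins, which switch G protein signals off, stood at both ends. RGS1 had 243 and 252 with decitabine and 3.22 and 1.86 with DMSO (log2 fold change 6.16, SE 0.67, limma adjusted p = 0.000822). RGS2 had 854 and 753 with decitabine and 44.5 and 48.5 with DMSO (log2 fold change 4.08, SE 0.251, limma adjusted p = 8.39e-05). RGS16 was the one gene that fell, with 6.72 and 8.55 with decitabine and 24.8 and 23.3 with DMSO (log2 fold change -1.54, SE 0.363, limma adjusted p = 0.0231).

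PIK3R6, a regulatory subunit of PI3-kinase gamma, had 137 and 99.8 with decitabine and 7.29 and 6.77 with DMSO (log2 fold change 3.88, SE 0.484, limma adjusted p = 0.00156). FGR, a SRC-family kinase of myeloid cells, had 988 and 1239 with decitabine and 204 and 161 with DMSO (log2 fold change 2.6, SE 0.29, limma adjusted p = 0.000922). The smallest called increases were in LYN, another SRC-family kinase (log2 fold change 0.86, SE 0.177, limma adjusted p = 0.0137), PLCB2, a phospholipase C (log2 fold change 0.88, SE 0.20, limma adjusted p = 0.0205), and PREX1, an exchange factor for RAC (log2 fold change 0.93, SE 0.192, limma adjusted p = 0.0144). At 72 h 2 of the 41 were higher and none lower, against 1.88% higher and 0.31% lower over all genes. Without PIK3R6 and RGS1, which were low in all DMSO libraries, 1 of 39 was higher, beside 1.35% of all genes not so low. At 6 h none was called.

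**Figure D5:**
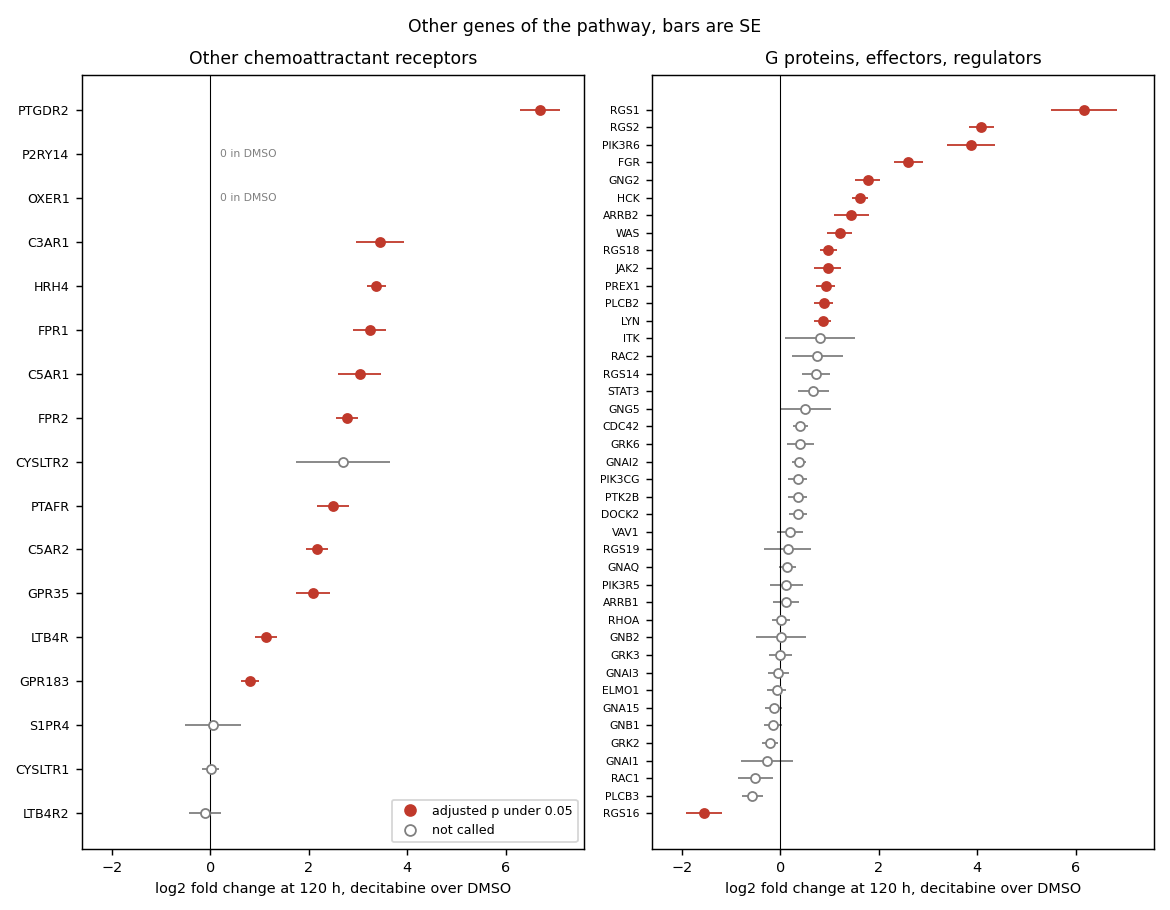
Log2 fold change at 120 h, decitabine over DMSO on the log2(value + 1) scale, of 17 other chemoattractant receptors (left) and 41 signalling genes (right); bars are SE, filled points have an adjusted p under 0.05, and genes at 0 in the DMSO libraries carry no point. Most attractant receptors lie to the right of 0, while most G protein subunits and kinases lie near 0 and RGS16 lies to the left.

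Markers of blood cell types moved with these genes, and the counts that follow stand beside 9.91% higher and 6% lower over all genes at 120 h. The 9 primary granule and myeloblast genes, which mark the line itself, were all tested and none was called at 120 h by limma. Their median log2 fold change was -0.165. Their summed levels were 122314 to 132866 normalised counts with decitabine and 141553 to 197107 with DMSO. MPO alone made up 87.15 to 87.92% of these sums with decitabine and 86.71 to 90.48% with DMSO. Of 12 eosinophil and basophil markers 11 were tested and 10 were higher, 7 of them among the 8 that reached 10 in a DMSO library. Their sums were 122829 to 133248 with decitabine and 14484 to 15780.1 with DMSO, of which PRG2 alone made up 88 to 88.9% with decitabine and 91.7 to 92.8% with DMSO. At 72 h 7 of these 11 were higher (4 of the 8), against 1.88% of all genes, with sums of 73288 to 85128 with decitabine and 17459.6 with DMSO. GATA1, a transcription factor of that lineage, had 81.5 and 80.1 with decitabine and 0 in both DMSO libraries at 120 h.

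Of 10 late neutrophil markers 9 were tested, 6 higher and 1 lower (4 higher and 1 lower of the 6 that reached 10 in a DMSO library), with sums of 24161 to 26618 with decitabine and 4719.8 to 5205 with DMSO at 120 h, mostly of S100A9. Of 10 monocyte and macrophage markers 9 were tested, 5 higher and 2 lower (4 higher and 2 lower of 8), with sums of 275491 to 278159 with decitabine and 110195 to 121497 with DMSO, over 99% of it from LYZ, the lysozyme gene, in each library. Of 8 T, B and NK cell markers 4 were tested and 3 were higher, all but NKG7 having entered through the decitabine libraries, with sums of 769 to 793 with decitabine and 77.8 to 79.7 with DMSO, and CD8A was at 0 in all libraries. Of 8 epithelial, stromal and endothelial markers 4 were tested and 2 were higher (1 of the 2 that reached 10 in a DMSO library), with sums of 2031 to 2129 with decitabine and 461 to 524 with DMSO, of which PECAM1, a gene that leukocytes also express, made up 88.1 to 88.8% with decitabine and 95.8 to 97.3% with DMSO. The part of any of these cell types in the chemokine and receptor results was not tested.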

How the data were processed

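RNA from HL-60 cells was depleted of ribosomal RNA, made into stranded libraries (ScriptSeq v2) and read as single-end 50 bp reads, per the labels' protocols. The deposited table gives a normalised signal per gene, which the authors scaled per library. The submitters' processing notes name, without giving roles, the build hg38 and the tools DESeq2, featureCounts, limma, Salmon 1.2.1 and STAR. The annotation release and any use of strand in counting are not given in the sources used here. Of the low values of each library, 59.3 to 65.3% fell within 0.01 of whole multiples of a library-specific step, so whole reads could not be recovered and no count model was run. Normalised totals were 12815698 to 15959030 per library.

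Each gene has 11 values under a heading of 12 library names, per the file headers. With the first name placed over the symbol, the last, DMSO 72 h replicate 2, has no values and was not analysed here. Libraries of a group then differed by a mean of 0.299 (median absolute log2 difference) against 0.439 between groups, and by 0.429 against 0.426 when read from the identifier. Every result rests on this reading.

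Values were taken to log2(value + 1), the 16152 of 60240 genes that reached 10 in 2 or more libraries were tested, and limma 3.58.1 in R 4.3.3 (lmFit, then eBayes with a trend) was fitted to all 11 libraries with 1 mean per group, with 5 residual and 8.42 total degrees of freedom. The lone DMSO 72 h library took its spread from the other groups. Tests were two-sided, with Benjamini-Hochberg adjustment across the tested genes and calls under 0.05. The script was tested on simulated data. The members, gene lists, comparisons and alternatives were chosen with earlier results of these data known. Named are all tested members, those under the filter that reached 3 (the values of 1 of them are not reported here), and of each pathway list the 4 largest and 4 smallest called changes at 120 h. All 66 members matched GENCODE 29, which gave coordinates and exon lengths. Promoters came from RefSeq, whose gene starts can differ from those of GENCODE. Alternatives were another pseudocount, no filter, quantile normalisation, no trend, the compared groups alone, a replicate block, all DMSO libraries as the 72 h control, and leaving out each library. Plots were drawn with matplotlib 3.10.9.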

Additional observations from a re-analysis of the deposited data

Results flagged for a closer look

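For 7 members the effect of decitabine differed between 120 and 6 h, beside 5.9% of all tested genes. The test was of the difference itself, an interaction term in limma with p-values adjusted over all 16152 genes. Of the 7, CCR8 and CCRL2 had entered the test through the decitabine libraries. The effect on CCL2 was 3.98 at 120 h and -0.08 at 6 h on the log2 scale, a difference of 4.06 (adjusted p = 0.00249). CCRL2 had effects of 5 at 120 h and -0.27 at 6 h, a difference of 5.27 (adjusted p = 0.00482), although its DMSO 120 h values were 0 and 0.7. The effects on CCL5 were 3.18 at 120 h and 0.07 at 6 h, which differ by 3.11 (adjusted p = 0.0122). For CCR1 they were 2.51 at 120 h and -0.49 at 6 h, which differ by 3 (adjusted p = 0.00567), with 6 h decitabine libraries below the DMSO libraries. Those on CXCL8 were 2.24 at 120 h and 0.41 at 6 h, which differ by 1.83 (adjusted p = 0.0202). For CCR2 the effects of -2.77 at 120 h and -0.26 at 6 h gave a difference of -2.50 (adjusted p = 0.00382).

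The cells differed between these times in hours of culture and in the number of doses received, which cannot be told apart here. The CCL5 call was lost without 6 of the 11 libraries in turn and the CXCL8 call without 7, with adjusted p up to 0.0658 and 0.104. For CCR8, the seventh, no difference is given because it was at 0 in all 6 h libraries; its call (adjusted p = 0.0338) was lost in 7 of the 16 alternatives that gave a value, 5 of them without a single library, with adjusted p up to 0.102.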

How the results depend on the processing

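Of 371 refits over 21 named values, 321 kept direction and call, 50 lost the call and 0 reversed. At 120 h, CCL2, CCL5, CCR1, CCR2, CCR8, CCRL2 and CXCL8 kept their calls in every alternative that gave a value. Without any single library of 120 h, the share of all tested genes called higher at that time fell too. The lower counts of members in those fits stand beside that fall, and whether they are particular to the members was not tested. The number of members higher at 120 h (10) ran from 5 to 11 with single libraries left out: 5 without decitabine 120 h replicate 1 or 2, 6 without DMSO 120 h replicate 1. The number lower (1) was 2 without the 72 h libraries, where 15.3% of all genes were lower against 6%. That setting was chosen after seeing the data. CCR2 was lower with decitabine in every alternative, with a log2 fold change from -3.121 to -2.595.

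At 72 h the number higher (2) was 4 without a trend, 0 with the 72 h libraries alone and 10 with all DMSO libraries as the control, where 10.7% of all genes were higher against 1.88%. With single libraries left out, the number higher rose without either decitabine 72 h library. It fell without either decitabine 120 h library or any 6 h library. In each of these fits the share of all tested genes called higher moved in the same direction. The number lower (1) was 0 with the 72 h libraries alone and ran from 0 to 2, with 0 without either DMSO 6 h library and 2 without decitabine 72 h replicate 1. The interaction count higher (6) ran from 3 to 9, with 3 without decitabine 120 h replicate 1 or 2, DMSO 120 h replicate 2, decitabine 6 h replicate 1 or 2 or DMSO 6 h replicate 1; the count lower stayed at 1. Between decitabine at 120 and 72 h, where 0 were called, 1 was higher with a pseudocount of 5 (CCR8), 1 higher (CXCL5) and 1 lower (CCR2) with no filter, and 1 lower (CCR2) with quantile normalisation; with single libraries left out, 0 to 8 were higher and 0 to 1 lower, the 8 and the 1 without decitabine 72 h replicate 1. At 6 h and between DMSO libraries, 0 members were called in every alternative. In the other comparisons the share of all tested genes called moved between alternatives as well. The cause of these shifts was not tested.

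With the replicate number as a block, 10 members were higher and 1 lower at 120 h, beside 9.57% and 5.68% of all genes. At 72 h 2 were higher and 1 lower (CXCL8 in place of CCRL2), beside 1.2% and 0.13%. In the interaction 5 were higher and 1 lower, beside 3.62% and 1.1%. The replicate numbers do not pair the libraries: over 10 pairs of groups the replicate differences correlated at -0.0777 to 0.124, over 0.1 in 2. Depth limits the genes near 0, where 1 count decides the DMSO level, and the lone DMSO 72 h library limits every 72 h comparison.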

Other observations

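When the filter on low values was dropped, 4.19% of 39394 genes were called higher with decitabine at 120 h. Among the members these also included CXCL1, CXCL5 and CXCL11, each listed at 0 in the DMSO 120 h libraries, and CCR3 was no longer called. CXCL5, an attractant of neutrophils, had 2.24 and 2.14 with decitabine at 120 h and was at 0 in the other 9 libraries. Its call rests on a handful of reads. CXCL11, a ligand of CXCR3, had 4.78 and 3.08 with decitabine and 0 and 0 with DMSO at 120 h.

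AC099329.1, which lies antisense to ACKR2, had 73.3 in decitabine 72 h replicate 2 and at most 0.562 in the other 10 libraries. ACKR2 had 11.1 and 12.3 in the decitabine 72 h libraries. This gene was picked after its values were seen.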
